A study of Mus musculus with 8 samples.

Results

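Interferon-stimulated genes are the genes that cells switch on when interferons, the cytokines of antiviral defence, reach their receptors. A list of 37 of them was followed in hepatocellular carcinomas (HCC) of male miR-122 knockout mice. Hepatocytes express miR-122 more than any other microRNA. Probes were assigned through the accession that the array files give for them, and each gene was represented by its brightest probe. Of the 37 genes, 34 were matched to a probe and 33 were tested, among 14313 genes tested in all. Mx1, Mx2 and Cxcl11 had no probe that matched by accession and were not analysed here. The annotation used, of a C57BL/6J genome, lists these 3 genes as transcribed pseudogenes. Oas1g had 2 probes, neither of them well above background in any channel of any array, and was not tested.

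The study set 8 tumors against normal liver on 8 arrays of 2 colours. HCC tissue of miR-122 KO mice was labelled with Cy5, and liver of age-matched male mice with the genotype miR-122 floxed was labelled with Cy3. Both groups had a mixed C57BL/6J and 129S/Svj background. How the gene was deleted, the age of the mice and whether tumors shared a mouse are not given in the labels, and knockout liver outside a tumor was not analysed here. Tumor was always in red and control always in green, so dye and tumor effects cannot be told apart. All tumors were knockout and all controls floxed, so knockout and tumor effects cannot be told apart either. The source of each array's control RNA, 1 animal or a pool, is likewise not given. Where the controls or the tumors are not from separate animals, the p-values do not measure the full spread between animals. No named probe measured miR-122, so the genotype labels could not be checked on it.

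Between 38.5% and 51.9% of probes were well above background in the tumor channel and between 45.1% and 54.3% in the control channel, and tumor 8 had the lowest share. With 8 arrays, precision is limited by their number. All 10 hepatocyte markers of a fixed list were well above background on all 8 arrays in both channels, with a summed signal of 631950 to 986306 in tumors and 1010580 to 1413970 in controls. The controls of arrays 1 and 2 were alike: across genes, which are not independent replicates, their deviations from the mean control correlated at r = 0.69, against 0.23 for the next closest pair of controls. Among tumors the highest such correlation was 0.56, between tumors 2 and 7. On array 8 the control channel held skeletal muscle transcripts, with a summed signal of 60602 over the 5 tested markers of 12, against 1281 to 1685 on the other arrays. The tumor channel of array 8 held 4752, against 1223 to 1615 in the other tumors.

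Type I interferons (alpha and beta) signal through JAK1 and TYK2 to a complex that holds STAT2 and IRF9 and binds a DNA element called the ISRE. Interferon gamma signals through JAK1 and JAK2 to another element called GAS, and many of its targets are induced again by IRF1. Hepatocytes, macrophages and endothelial cells all respond to interferons. In bulk tissue, fewer cells of a type and less RNA per cell cannot be told apart. The genes were divided by textbook knowledge into a type I set of 29 genes and 8 gamma targets, a division that is not strict, since Cxcl10, Gbp, Iigp1 and Irgm1 genes respond to both kinds of interferon.

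The elements themselves are shown here for genes whose values are described further on. RefSeq promoters (GRCm38.p6), windows of 300 bases from 250 before each gene's start to 50 after it, were at hand for 25 of the 33 tested genes. A pair of GAAA with any 2 bases between them (a pair of TTTC on the other strand), standing for the ISRE, was found in 15 of these 25 genes (60.0%) and in 3.99% of all 27025 genes with a promoter. TTC and GAA with any 3 bases between them, standing for GAS and reading the same on both strands, were found in 5 of the 25 and in 9.55% of all genes. Matches to the ISRE can overlap each other, as they do in Isg15, and in Bst2 a match to GAS overlaps the first match to the ISRE. Capitals mark every match to the ISRE, or for Irf1 the match to GAS, with the bases around it, 5′ to 3′ in the direction of the gene.
Isg15 (chr4:156200855-156200916, minus strand, 3 matches): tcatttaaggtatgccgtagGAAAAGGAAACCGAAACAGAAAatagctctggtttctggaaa
Ifit1 (chr19:34640765-34640833, plus strand, 2 matches): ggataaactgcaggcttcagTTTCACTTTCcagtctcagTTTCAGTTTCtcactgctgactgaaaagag
Ifit3 (chr19:34583353-34583436, plus strand, 2 matches): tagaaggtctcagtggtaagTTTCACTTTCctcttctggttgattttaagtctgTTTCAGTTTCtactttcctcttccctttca
Oas1a (chr5:120907510-120907565, minus strand, 2 matches): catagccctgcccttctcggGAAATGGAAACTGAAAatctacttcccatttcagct
Cxcl10 (chr5:92349073-92349122, minus strand, 1 match): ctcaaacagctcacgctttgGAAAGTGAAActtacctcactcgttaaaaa
Bst2 (chr8:71537567-71537622, minus strand, 2 matches): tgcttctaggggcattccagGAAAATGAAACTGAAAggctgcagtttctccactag
Gbp3 (chr3:142559979-142560034, plus strand, 2 matches): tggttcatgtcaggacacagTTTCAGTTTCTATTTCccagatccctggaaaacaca
Irgm1 (chr11:48871415-48871470, minus strand, 2 matches): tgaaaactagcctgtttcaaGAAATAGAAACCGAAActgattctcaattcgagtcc
Irf1 (chr11:53769904-53769952, plus strand, 1 match to GAS): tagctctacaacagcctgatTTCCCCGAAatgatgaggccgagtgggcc
Isg15, Ifit1, Ifit3, Oas1a and Cxcl10 rose in the tumors, while Bst2, Gbp3, Irgm1 and Irf1 were not called. Of the 9 genes that rose, all had a promoter at hand and 5 held a match to the ISRE (55.6%); of 16 with a promoter that were not called, 10 did (62.5%).

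In the tumors, 9 of the 33 genes rose and 1 fell. Calls required an absolute log2 ratio of tumor over control of at least 1, with an adjusted p under 0.05 (limma, Benjamini-Hochberg over all genes). The 9 that rose are 27.3% of the 33, against 9.54% of all tested genes, and the 1 that fell is 3.03%, against 5.94%. The median log2 ratio of the 33 was 0.57, against 0.03 for all tested genes. By the adjusted p alone, with any size, 42.4% of the 33 passed, against 53.8% of all genes, and 21.2% had the same sign on all 8 arrays, against 33.7%. Their median SD between arrays was 0.84 on the log2 scale, against 0.37 for all tested genes. Within arrays 1 to 4, which lie in one row of the slide, 5 of the 33 were called higher, against 11.4% of all tested genes, and 1 lower. Within arrays 5 to 8, in the other row, 5 were called higher, against 5.93% of all tested genes, and 0 lower. In that limma fit, 2 of the 33 had a negative ratio with an unadjusted p under 0.05. Isg15 and Ifit1 were called in neither row alone. Without tumors 7 and 8, 4 of the 33 genes were called higher (Cxcl10, Ifit2, Oas1a and Oasl1) and 1 lower (Iigp1). Of all tested genes, 11.1% were then called higher, a share near that of the 33. Ifit1 (0.64), Ifit3 (0.79), Isg15 (0.81), Oasl2 (0.90) and Xaf1 (0.91) then fell short, and the median ratio of the 33 genes was 0.27.

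**Figure D1:**
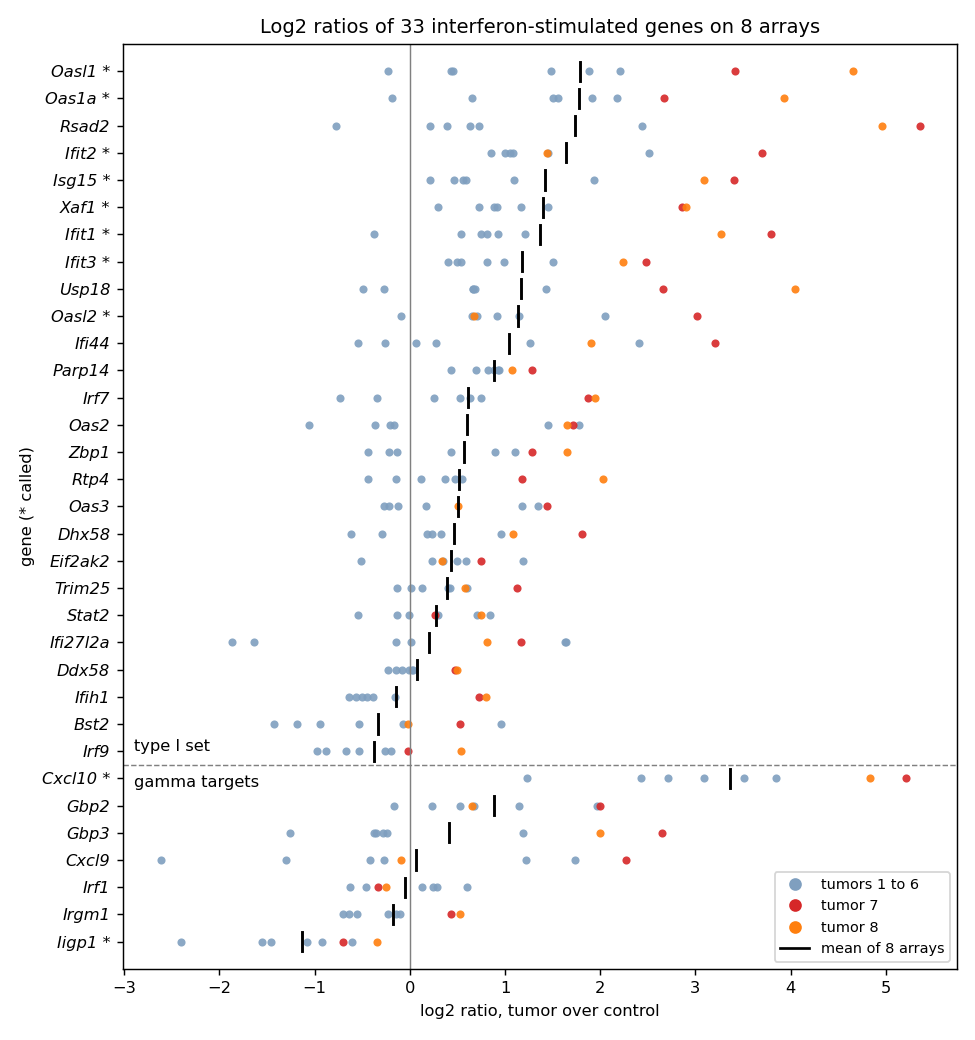
Log2 ratio of tumor over control (horizontal axis) for each of the 33 tested interferon-stimulated genes (vertical axis, asterisks for called genes, dashed line between the type I set and the gamma targets). Each point is 1 array, with tumor 7 in red and tumor 8 in orange, and the black bar is the mean of 8 arrays. Cxcl10 has the highest mean at 3.36 and Iigp1 the lowest at -1.13, and the highest point is that of tumor 7 in 15 genes and of tumor 8 in 12.

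The IFIT genes, whose proteins bind viral RNA, rose together: 3 of 3 were called higher, against 9.54% of all genes. Ifit1 had tumor signals from 7.76 to 11.17 (median 8.88) and control signals from 6.87 to 9.61 (median 7.54), on the log2 scale of the channel. The groups overlapped, because the controls of arrays 1 and 2, at 9.61 and 9.44, lay above the signals of 5 tumors. Within arrays, the log2 ratio of Ifit1 was 1.37 ± 1.42 (SD, n = 8; adjusted p = 0.0229), above 0 on 7 arrays. Ifit2 did not overlap between groups, with tumors from 7.69 to 10.58 and controls from 6.83 to 7.45. Its ratio was 1.64 ± 0.98 (3.11-fold; adjusted p = 0.00151). Ifit3 had a ratio of 1.18 ± 0.81, above 0 on all 8 arrays (adjusted p = 0.00326), and it has a near-identical neighbour, Ifit3b, whose RNA its probe may also bind. Without tumor 7 the ratio of Ifit3 was 0.997 and no longer reached the size of a call.

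Isg15, a ubiquitin-like protein that is attached to other proteins, rose, and its remover Usp18, which also blocks the type I receptor, missed the threshold. Isg15 had tumor signals from 11.62 to 15.44 (median 12.81) and control signals from 10.73 to 12.98 (median 11.61). The highest tumors were 7, 2 and 8, and the highest controls those of arrays 1 and 2. The ratio of Isg15 was 1.42 ± 1.25 (2.67-fold; adjusted p = 0.0107), above 0 on all 8 arrays, and its second probe gave 1.22. Usp18 had a ratio of 1.17 ± 1.52 (adjusted p = 0.0541), from -0.49 in tumor 1 to 4.04 in tumor 8. It was called without tumor 1 (1.41, adjusted p = 0.0342) and without tumor 6 (1.38, adjusted p = 0.0415). It was also called with arrays 1 and 2 averaged (1.33, adjusted p = 0.0478) and with the slide row as a block (adjusted p = 0.0439). Trim25, a ligase that activates the sensor RIG-I, had a small ratio of 0.39 ± 0.40 with an adjusted p of 0.0327.

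Of the oligoadenylate synthetase family, whose products activate the RNA-degrading enzyme RNase L, 3 of 5 tested genes rose (60%, against 9.54% of all genes). None of the 5 fell, and none had a negative ratio with an unadjusted p under 0.05 in the limma fit. Oas1a had a ratio of 1.78 ± 1.25 (3.43-fold; adjusted p = 0.00335), from -0.18 in tumor 6 to 3.93 in tumor 8, and its second probe gave 1.70. Oasl1, an OAS-like protein without synthetase activity that restrains translation of Irf7, had a ratio of 1.79 ± 1.64 (adjusted p = 0.0127). Its signals were equal at 15.57 in tumors 7 and 8 and lay from 12.76 to 14.81 in the others. Oasl2 had a ratio of 1.14 ± 0.97 (adjusted p = 0.00960), and without tumor 7 it fell short of a call at 0.87. Oas2 and Oas3 were not called, at 0.60 ± 1.16 and 0.50 ± 0.72. Oas2 was above 0 on arrays 1, 2, 7 and 8 and below 0 on the other 4.

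Other antiviral genes of the type I set spread widely between tumors. Rsad2, which encodes viperin, had the largest SD of the 33 genes, with a ratio of 1.74 ± 2.29 (adjusted p = 0.0561). It stood at 5.35 and 4.96 in tumors 7 and 8 and at 2.43 in tumor 2, while the other 5 tumors ranged from -0.78 to 0.72. Leaving out tumor 1 brought Rsad2 past the threshold (2.10, adjusted p = 0.0350). Ifi44 had a ratio of 1.04 ± 1.37 (adjusted p = 0.0576), which passed both limits when tumor 4 (1.22, adjusted p = 0.0446) or when tumor 6 was left out (1.26, adjusted p = 0.0333). Ifi27l2a had a ratio of 0.20 ± 1.37, from -1.86 in tumor 6 to 1.64 in tumor 2. Xaf1, an interferon-induced partner of the apoptosis inhibitor XIAP, rose by 1.40 ± 0.97 (adjusted p = 0.00332), above 0 on all 8 arrays. A dimmer probe of Xaf1 gave 0.09 ± 2.33, and the mean of both probes was not called (0.75, adjusted p = 0.146). Parp14, an ADP-ribosyltransferase, had the lowest SD of the 33 genes: its ratio was 0.88 ± 0.25, with an adjusted p of 7.74e-05, below the size of a call, and ran from 0.43 to 1.28. Rtp4, a chaperone of receptors, had a ratio of 0.52 ± 0.78. Bst2, or tetherin, which holds budding virus at the cell surface, had a ratio of -0.33 ± 0.84, with its control signals between 13.62 and 14.30 and its tumor signals between 12.60 and 14.76.

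Sensors and transcription factors of the pathway were not called: 0 of 5 sensors and 0 of 3 factors, against 15.5% of all genes in either direction. Among them, 2 sensors and 1 factor had an unadjusted p under 0.05 in the limma fit. The RNA sensor Ifih1, which encodes MDA5, had a ratio of -0.15 ± 0.58, and Ddx58, which encodes RIG-I, 0.07 ± 0.27. For Ddx58 the channels followed each other, with tumors from 10.54 to 11.50 and controls from 10.46 to 11.46. Dhx58, a regulator of both sensors, stood at 0.46 ± 0.79, and Zbp1, a sensor of Z-form nucleic acid, at 0.57 ± 0.78. The kinase Eif2ak2, or PKR, which halts translation on double-stranded RNA, had a ratio of 0.43 ± 0.48 (adjusted p = 0.0431). Irf7, the factor that amplifies interferon production, had a ratio of 0.61 ± 0.95 (adjusted p = 0.101), from -0.74 in tumor 6 to 1.94 in tumor 8. Irf9 stood at -0.37 ± 0.50 (adjusted p = 0.0740), below 0 on 7 arrays, and Stat2 at 0.27 ± 0.49.

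Gamma targets did not move as one. Of the 7 tested, 1 rose (14.3%, against 9.54% of all genes), 1 fell (14.3%, against 5.94%) and 5 were not called. Cxcl10, a chemokine that draws CXCR3-bearing T and NK cells, rose more than any other of the 33 genes. Its tumor signals ran from 10.70 to 13.81 (median 12.45) and its control signals from 8.00 to 10.25 (median 8.71). All 8 tumors lay above all 8 controls, which was so for 2 of the 33 genes (Cxcl10 and Ifit2) and for 8.34% of all tested genes. No gene of the 33 had all tumors below all controls, as 8.37% of all tested genes did, and groups without overlap in either direction made up 16.7% of those. The ratio of Cxcl10 was 3.36 ± 1.29 (10.3-fold; adjusted p = 1.10e-04), from 1.24 in tumor 6 to 5.21 in tumor 7. Cxcl9, a ligand of the same receptor induced mainly by interferon gamma, had no such shift: its ratio was 0.07 ± 1.62 (adjusted p = 0.919), with 3 arrays above 0. Tumors 7, 1 and 2 stood at 2.27, 1.74 and 1.22, and tumor 6 at -2.61. The mean of Cxcl9 was below 0 when tumor 1, 2 or 7 was left out.

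Among the interferon-induced GTPases, which attack the membranes around parasites and bacteria, Iigp1 fell and the others were not called. Iigp1 had tumor signals from 10.51 to 11.67 (median 11.24) and control signals from 11.61 to 13.08 (median 12.17). The groups met only at tumor 6, at 11.67, and the control of array 8, at 11.61. Its ratio was -1.13 ± 0.66 (adjusted p = 0.00146), below 0 on all 8 arrays, and its second probe gave -1.10. Without tumor 2, which had the lowest ratio at -2.40, the ratio was -0.95 and fell short of the size of a call. Gbp2 had a ratio of 0.88 ± 0.78 (adjusted p = 0.0120), below that size. It was called without tumor 6 (1.03, adjusted p = 0.00676). Gbp2 was also called in the slide row that includes tumors 1 and 2, taken alone (1.01, adjusted p = 0.0386). Gbp3 stood at 0.42 ± 1.36, with tumors 7, 8 and 2 at 2.65, 1.99 and 1.19 and the other 5 below 0. Irgm1, at -0.18 ± 0.46, was above 0 in tumors 7 and 8 alone. Irf1, the factor that carries much of the gamma response, had a ratio of -0.05 ± 0.43.

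**Figure D2:**
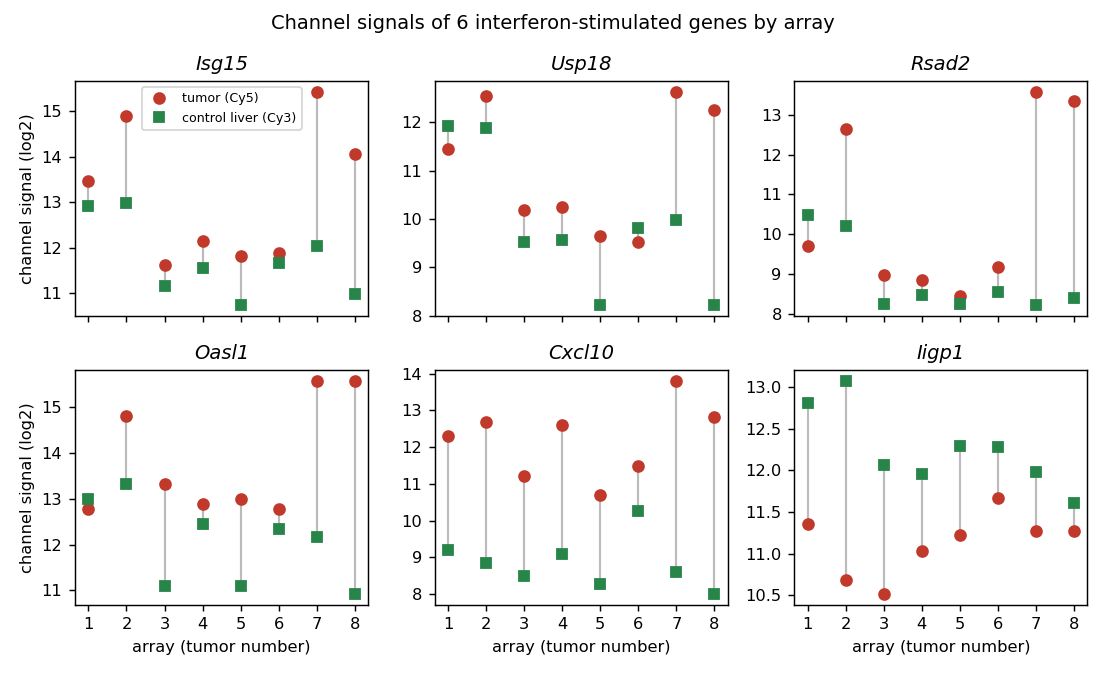
Channel signals (log2, vertical axis, a separate scale for each gene) on arrays 1 to 8 (horizontal axis) for 6 genes, with tumor as red circles, control liver as green squares and a grey line joining the 2 channels of an array. Cxcl10 is higher in tumor and Iigp1 lower on all 8 arrays, while the controls of arrays 1 and 2 are the highest controls of Isg15, Usp18 and Rsad2.

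Set against each other, the type I genes had a higher mean ratio than the gamma targets on 7 of 8 arrays. The median ratio over genes was 0.61 for the 26 tested genes of the type I set and 0.07 for the 7 gamma targets. Of the type I genes, 8 were called higher (30.8%, against 9.54% of all genes) and 0 lower. In the limma fit, 1 type I gene had a negative ratio with an unadjusted p under 0.05. The mean over type I genes was 0.78 ± 0.76 (SD over 8 arrays) and that over gamma targets 0.48 ± 0.70. Within arrays the difference was 0.30 ± 0.30, from -0.21 on array 1 to 0.77 on array 8. It was 0.07 over arrays 1 to 4 and 0.53 over arrays 5 to 8. No test was made of this difference, since the genes were chosen with results of these data known. It is of about the size of its own spread between arrays. The gamma mean rests largely on Cxcl10, at 3.36, since the other gamma targets lay on both sides of 0, from -1.13 to 0.88. With Irf1, Cxcl9 and Gbp2 alone as gamma targets, the difference was 0.48 and ran from -0.65 to 1.72, below 0 on arrays 1 and 2. The order also depends on the gamma genes chosen. A list of 16 tested antigen-processing genes and other gamma targets, given further on, had a median of 0.70, above that of the type I set.

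Ranked by the mean ratio of the type I set, tumor 7 came first at 2.01 and tumor 8 next at 1.82. Tumor 2 followed at 0.97, tumor 5 at 0.54, tumor 1 at 0.41, tumor 3 at 0.31 and tumor 4 at 0.29, and tumor 6 was last at -0.09. By the gamma targets, tumors 7, 8 and 2 again led, at 1.65, 1.05 and 0.75, and tumor 6 was last at -0.66. Tumor 7 held the highest ratio in 15 of the 33 genes and tumor 8 in 12, against 14.3% and 14.4% of all genes. Both of the highest ratios belonged to tumors 7 and 8 in 19 of the 33 genes, of which 16 were of the type I set, and in 6.49% of all genes. The lowest ratio was that of tumor 6 in 16 of the 33, against 11.4% of all genes.

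**Figure D3:**
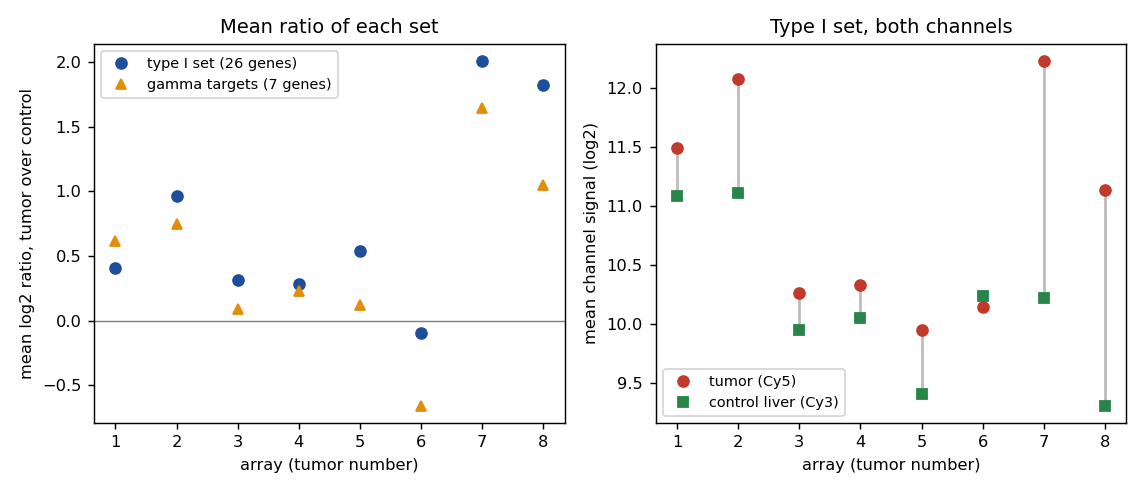
Left, mean log2 ratio of tumor over control on each array for the 26 tested genes of the type I set (blue circles) and the 7 tested gamma targets (orange triangles). Right, mean channel signal (log2) of the type I set on each array in tumor (red circles) and control liver (green squares), joined by grey lines. Tumors 7 and 8 have the highest ratios, at 2.01 and 1.82, while in the tumor channel tumors 7, 2 and 1 are highest, at 12.23, 12.08 and 11.49.

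The order was another one when each channel was read alone. The tumor channel of the type I set had its highest means in tumors 7, 2, 1 and 8, at 12.23, 12.08, 11.49 and 11.13, against 9.96 to 10.34 in tumors 3 to 6. Tumor 5 had the lowest tumor signal in 18 of the 33 genes, against 8.08% of all genes. Tumor 6, last by ratio, had it in 2. In the control channel, arrays 1 and 2 had the highest means, at 11.09 and 11.11, against 9.31 to 10.24 on the others, with the lowest on array 8. The ratios of tumors 1 and 2 were therefore taken against high controls and that of tumor 8 against a low one. For the gamma targets, the highest control mean was that of array 6, at 11.15. Controls 1 and 2 were the highest pair in 24 of the 33 genes, 22 of them type I genes, against 10.5% of all genes. The control of array 8 was the lowest in 23 of the 33, against 13.4% of all genes. Usp18 shows it: its control signals were 11.93 and 11.88 on arrays 1 and 2, 8.22 on array 8 and 8.23 to 9.98 on the other 5. The control channel of the 33 genes varied between arrays with a median SD of 0.72, against 0.19 for all tested genes, and the tumor channel with 1.01 against 0.34. These levels rest on scaling between arrays, and whether the controls of arrays 1 and 2 were 1 RNA or 2 animals in a like state cannot be told apart here. With arrays 1 and 2 averaged into 1, 10 of the 33 genes were called higher, Usp18 being the one added. The part of the muscle RNA on array 8 in the ratios of tumor 8 was not tested; without tumor 8, 9 genes were called higher and 1 lower.

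Few interferon genes were detected well enough to test. Of 18 on the list, 14 had a probe, 5 passed the filter on dim probes and none was called (limma, none with an unadjusted p under 0.05). Ratios were 0.16 ± 0.16 for Ifna12, 0.11 ± 0.10 for Ifna1, 0.04 ± 0.13 for Ifna14, -0.15 ± 0.18 for Ifnab and 0.08 ± 0.15 for Ifnl3, an interferon lambda. The Ifnl3 probe was well above background in both channels of all 8 arrays, and those of the other 4 in 3 to 6 tumors and 4 to 7 controls. Alpha interferon genes are near-identical copies, so their probes may not separate them. Ifnb1 was well above background in 2 tumors and 0 controls, and Ifng, the gamma interferon gene, in 3 tumors and 1 control, so neither was tested.

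Of 9 genes for the receptors and their kinases 3 rose, against 9.54% of all genes, and 0 fell (none of the 9 had a negative ratio with an unadjusted p under 0.05 in the limma fit). Both chains of the interferon lambda receptor were among them, Ifnlr1 with 1.95 ± 0.31 (3.87-fold) and Il10rb, which also serves interleukin-10, with 1.81 ± 0.66. The control signal of Ifnlr1 was dim, with a mean of 6.61, and its ratio ran from 1.89 to 3.24 with other processing or fewer arrays. The third gene that rose was the ligand-binding chain of the gamma receptor, Ifngr1, with 1.45 ± 0.55. Its partner Ifngr2 had a ratio of 0.86 ± 0.61, short of the size of a call. Ifngr2 was called without tumor 8 (1.02, adjusted p = 7.14e-04) and without tumors 7 and 8 (1.06). It was also called on arrays 1 to 4 alone (1.01) and with array weights (1.11). The type I receptor chains had smaller ratios, 0.35 ± 0.41 for Ifnar1 and 0.20 ± 0.10 for Ifnar2. The kinases Jak1, Jak2 and Tyk2 stood at 0.25 ± 0.16, 0.32 ± 0.32 and -0.14 ± 0.35.

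Of genes that sense nucleic acid and induce interferon, 1 of 16 tested rose and 1 fell, and so did 1 and 1 of 16 tested negative regulators, shares of 6.25% that lie near those of all genes. The factor Irf8 rose by 1.03 ± 0.41 and came below a ratio of 1 without tumor 1 (0.99), 2 (0.94) or 5 (0.98). The DNA receptor Tlr9 fell, at -1.19 ± 0.34, but was not called with the scanner's processed signals. Among the negative regulators, Tnfaip3, or A20, an inhibitor of NF-kappaB, rose by 1.74 ± 0.46, and Irf2, which competes with Irf1 for DNA, fell, at -1.16 ± 0.34. A wider list of interferon-induced genes outside the 37 had 10 of 44 tested genes higher (22.7%, against 9.54% of all genes) and 0 lower (6 with a negative ratio had an unadjusted p under 0.05 in the limma fit), with a median of 0.29. Phf11d (2.12 ± 0.93), the secreted glycoprotein gene Lgals3bp (2.05 ± 0.30), the GTPase gene Gbp9 (1.87 ± 0.69) and Trim30a (1.77 ± 0.62) led it. Of 16 tested genes for antigen processing, class II molecules and other gamma targets, 6 rose (37.5%, against 9.54% of all genes) and 0 fell (none with a negative ratio had an unadjusted p under 0.05 in the limma fit), with a median of 0.70. Cd74, the class II invariant chain, had a ratio of 1.63 ± 0.84, the immunoproteasome subunit Psmb8 1.61 ± 0.40, and the class II genes H2-Aa and H2-Eb1 1.48 ± 1.00 and 1.48 ± 0.73. On arrays 5 to 8 alone Cd74, H2-Aa and H2-Eb1 were not called.

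Markers of cells that make or answer interferons were read beside these values. Of the 15 T and NK cell markers 11 were tested and none was called (limma, 3 higher and 1 lower with an unadjusted p under 0.05), with a summed signal of 4459 to 9692 in tumors and 5130 to 8745 in controls. Cd8a, Klrb1c and Ncr1 had probes too dim to be tested. Of 12 macrophage and monocyte markers 10 were tested and 6 rose (60%, against 9.54% of all genes), led by Cd14 (4.61 ± 0.79) and the fractalkine receptor Cx3cr1 (3.24 ± 1.66), with sums of 19430 to 71487 in tumors and 13972 to 22713 in controls. On arrays 5 to 8 alone Cx3cr1 was not called (2.71, adjusted p = 0.0752). The mean ratio of this list was 1.22 in tumor 7 and 0.21 in tumor 8, the tumors with the highest interferon ratios, and 1.87 to 2.19 in the others. Of 7 markers of resident Kupffer cells 6 fell (85.7%, against 5.94% of all genes), among them Clec4f (-3.33 ± 1.11), with sums of 1672 to 18679 in tumors and 24141 to 63255 in controls. Of 8 markers of plasmacytoid dendritic cells, the chief makers of type I interferon, 7 were tested and 1 rose (14.3%, against 9.54% of all genes). It was Ly6d (3.54 ± 0.15), while Siglech stood at 0.61 ± 0.51. The sums of the 7 markers, 60301 to 137671 in tumors and 21048 to 39430 in controls, rest mainly on the bright probes of Ly6d and Siglech, and Klk1 had a negative ratio (-0.67 ± 0.60). Of 9 endothelial markers 2 fell (22.2%, against 5.94% of all genes), the sinusoidal genes Clec4g (-3.13 ± 1.06) and Stab2 (-1.44 ± 0.58). The sums of the 9 were 8052 to 14233 in tumors and 20545 to 26666 in controls. Of 7 B and plasma cell markers 5 were tested and 1 rose (20%, against 9.54% of all genes). It was Jchain, the joining chain of secreted antibodies (1.89 ± 0.68). The sums of the 5 were 1984 to 13500 in tumors and 1107 to 4635 in controls. Of the 10 hepatocyte markers 3 fell (30%, against 5.94% of all genes), Serpina1a (-1.79 ± 0.47), Cps1 (-1.64 ± 1.27) and Apoa1 (-1.05 ± 0.88). On arrays 5 to 8 alone Cps1 and Apoa1 were not called, and Apoa1 also fell short without tumor 2 (-0.92), without tumor 7 (-0.81) and without tumors 7 and 8 (-0.93). The part of these cells in the interferon-stimulated genes was not tested.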

How the data were processed

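Gene expression in 8 tumors and control livers was measured on 8 Agilent arrays. Per the file headers, the deposited files give each spot's median signal and background on a linear intensity scale, and also processed signals that were background-subtracted, detrended and dye-normalized by the authors' Feature Extraction 10.9.1.1 (10.9 in the submitters' processing notes). The array's genome build is not given in the sources used here. Signals were corrected by normexp (offset 50) and loess within arrays, with control and outlier spots at weight 0 (limma 3.58.1 in R 4.3.3, with the data.table package at version 1.17.8). No spot was saturated. Of 55681 probes, 26582 were named by accession (GRCm38.p6) and 10 by the files. The filter kept 29292 probes, named or not, that exceeded background clearly in 4 or more arrays, in the red or the green channel. Of the named ones, the brightest of each gene was tested, for 14313 genes. Mean log2 ratios were tested against 0 with lmFit and eBayes and adjusted by Benjamini-Hochberg. Channel signals were taken after Aquantile. Errors are SDs over arrays. The procedure was tested on simulated data. The 37 genes, the further lists and the tests were chosen with earlier results of these data known. Named were all 37 genes, all tested interferon and receptor genes and up to 4 called genes of a list with the largest ratios. Siglech and the T and NK cell markers too dim to test were added after their values were seen. Klk1 was also named outside this rule. 1 further gene is not reported here. Alternatives changed the background correction, scaling, filter, probe, variance model, slide row and arrays used.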

Additional observations from a re-analysis of the deposited data

Results flagged for a closer look

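Of 77 sets of 8 ratios examined, 4 held a tumor far from the others by Dixon's criterion, and none of these was of the 33 interferon-stimulated genes. Chance alone marks about 1 set in 20. Tumor 8 was the low one in 3 of them. H2-Aa had a log2 ratio of -0.83 in tumor 8, against 1.14 in the next lowest tumor. H2-Eb1 stood at -0.16 in tumor 8, against 1.31 in the next. Cx3cr1 was at -0.65 in tumor 8, against 3.10 in the next. Ifna12 had a ratio of 0.48 in tumor 7, against 0.19 in the next highest, at signals near background.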

How the results depend on the processing

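Of the 33 genes, the count called higher, 9 in all, was 5 on arrays 1 to 4 alone, 5 on arrays 5 to 8 alone and 4 without tumors 7 and 8. The shares of all tested genes called higher in these settings were 11.4%, 5.93% and 11.1%. When 1 array was left out, 7 to 12 of the 33 were called higher. The count called lower was 1, and 0 on arrays 5 to 8 alone. It was 0 to 1 when 1 array was left out. With the processed signals, 3540 genes of all tested were called, against 2216. With the slide row as a block, 12 of the 33 were called higher (consensus correlation -0.03). The block added Usp18, Rsad2 and Ifi44. The median ratio (0.43 to 0.68) and the difference between type I and gamma genes (0.23 to 0.37) stayed above 0 with any 1 array left out. The other background corrections, processed signals, centring, scaling, filters and an intensity trend called the same 10 of the 33 genes, the mean of all probes lost Xaf1, and array weights lost Ifit3 and Oasl2. Of 758 repeats for the 33 genes, 701 kept sign and call. Genes near 0 changed sign. With the processed signals, Ddx58 stood at -0.12, Irf1 at 0.14, Ifnl3 at -0.026 and Ifna14 at -0.17. With array weights, Ddx58 stood at -0.0088, Ifi27l2a at -0.11, Cxcl9 at -0.36 and Gbp3 at -0.0053. On arrays 1 to 4 alone, Ddx58 was -0.048, Irf1 0.31 and Tyk2 0.10. On arrays 5 to 8 alone, Ifih1 was 0.17, Cxcl9 -0.18 and Irgm1 0.074. With arrays 1 and 2 averaged, Ifi27l2a was -0.0031 and Cxcl9 -0.14. Without tumors 7 and 8, Ddx58 was -0.067, Ifi27l2a -0.062, Irf1 0.029, Cxcl9 -0.27 and Gbp3 -0.22. Leaving out 1 array moved Ifi27l2a from -0.0036 to 0.50, Cxcl9 from -0.25 to 0.45 and Irf1 from -0.14 to 0.031. The causes were not tested. Signals near background limit the interferon genes. Every ratio pairs tumor and control within an array, so all tests are paired by array.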
